A study of Mus musculus with 3 samples.

Results

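Purinergic receptors read nucleotides that cells release, and the ectonucleotidase CD39 removes those nucleotides. 7 genes of this system were followed in aortic leukocytes, of 32285 genes in the count table: the ATP-gated channels P2rx4 and P2rx7, the nucleotide receptors P2ry6, P2ry12, P2ry13 and P2ry14, and Entpd1, which encodes CD39. They were taken by symbol, all 7 were present, and the antibody against surface CD39 was read beside them. The genes were proposed with results of these data in view, and which values entered that choice is not stated. Their transcript levels and differences, and those of the CD39 antibody, are therefore a description. The p-values printed beside them come from fits over all genes or all antibodies, or from permutation tests, and support nothing further.

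The data are CITE-seq, in which transcripts and bound antibody tags are counted in the same single cells, of CD45+ leukocytes from the aorta of C57BL/6 mice. 5 mice were Jak2WT (mice 1 to 5). 5 were Jak2V617F Myel (labelled MyC), in which LysM-Cre, active mainly in myeloid cells, switches a floxed Jak2V617F allele on: mice 6, 8 and 10 had aortic dilation without aneurysm, and mice 7 and 9 had an aneurysm. None was treated, controls were littermates, males and females were used, and the age of these mice is not given. Circulating leukocytes, marked by anti-CD45.2 injected shortly before sacrifice, were sorted out. Each genotype was sorted to about the same number of cells, so cell yields do not compare the genotypes. The cells kept in the end were not even, at 112 to 553 per Jak2WT mouse and 345 to 811 per Jak2V617F Myel mouse. Each mouse was labelled with its own hashtag antibody before all 10 were pooled and run together in 1 droplet library. Free RNA was thus shared by all mice, and there was no library batch to separate. The counts come from transcript ends and do not show which Jak2 allele a cell carried. Jak2 itself was at 16.8 to 37.5 counts per 1000000 counts of the sum (CPM) in the resident macrophages of single mice.

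Of 8471 barcodes, 5857 carried 1 hashtag, and 4871 cells passed a mitochondrial limit of 10%, with 1038443 to 9643994 unique molecular identifiers (UMIs) per mouse. Macrophages numbered 1730 after 389 cells of low RNA content were removed. They comprised 655 Lyve1+ resident macrophages (26 to 120 per mouse) in the subsets Res-MGL1hi, Res-Txnip-hi and Res-S100hi, 471 macrophages led by immediate-early genes (IEG), 488 Ccr2+ inflammatory macrophages, 72 with interferon-induced genes (IFNIC), 28 monocytes and 16 unnamed cells. Lyve1 was not used to name clusters, but cells were clustered on transcripts, so its levels by cluster are a description. Lyve1 was at 2116 ± 457 CPM in resident macrophages (SD, n = 10). The inflammatory cluster had 45.9 ± 30.2 CPM of it (n = 5). Ccr2 was at 285 ± 150 CPM in the inflammatory cluster and 57.2 ± 59.3 CPM in resident macrophages. Its ranges over mice overlapped (155 to 541 and 0 to 206 CPM). Ccr2 was among the markers that named the inflammatory cluster, so it is no check of that label. Composition and depth moved with the groups. Inflammatory macrophages made up 66.8% and 50% of macrophages in mice 7 and 9 with aneurysm, and 0.98% to 12.7% in the other 8. Res-MGL1hi cells made up 49.2% to 64.1% of resident macrophages in Jak2V617F Myel and 8.11% to 40% in Jak2WT mice. Resident cells were also deeper in Jak2V617F Myel mice, with median UMIs per cell of 11121.5 to 12949.5 against 7673 to 9903.

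As background, ATP, ADP, UTP and UDP leave stressed or dying cells, and immune cells sense them through P2X ion channels and P2Y receptors that couple to G proteins. P2X7 opens at high ATP and is a known trigger of the NLRP3 inflammasome and of IL-1beta release. P2X4 responds to lower ATP. P2Y6 binds UDP and couples to Gq, whereas P2Y12 and P2Y13 bind ADP, and P2Y14 binds UDP-glucose, all through Gi. CD39 degrades ATP and ADP to AMP, and CD73 (Nt5e) turns AMP into adenosine, which acts on its own receptors.

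The genes lie as follows (GRCm38, GENCODE annotation). P2ry12 (chr3:59216272-59262871), P2ry13 (chr3:59207892-59210882) and P2ry14 (chr3:59113855-59153618) are neighbours on the minus strand, all inside Med12l, which runs on the plus strand (chr3:59005825-59318682). P2rx7 (chr5:122643911-122691432) and P2rx4 (chr5:122707544-122729738) follow each other on the plus strand. P2ry6 is at chr7:100937630-100974649 on the minus strand, and Entpd1 at chr19:40612366-40741602 on the plus strand. The chromosome 3 neighbours did not all share a pattern over cell classes. P2ry12 and P2ry13 were both read in macrophages, with P2ry12 also in platelets and P2ry13 also in neutrophils. P2ry14 was low in macrophages and highest in type 1 dendritic cells (cDC1). Their promoters are shown for that contrast, with that of Entpd1, whose transcript stood highest in neutrophils among the classes read. The windows are the 250 bases before a RefSeq transcript start (GRCm38.p6), written 5′ to 3′ on the gene's strand, with capitals at matches, on either strand, to GAGGAA, a core bound by the myeloid factor PU.1.

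P2ry12 (chr3:59262986-59263235, minus): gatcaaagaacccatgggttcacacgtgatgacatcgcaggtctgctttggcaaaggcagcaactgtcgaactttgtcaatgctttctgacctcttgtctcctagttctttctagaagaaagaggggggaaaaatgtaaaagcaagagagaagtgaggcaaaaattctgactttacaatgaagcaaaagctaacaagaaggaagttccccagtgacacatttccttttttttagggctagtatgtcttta
P2ry13 (chr3:59210883-59211132, minus): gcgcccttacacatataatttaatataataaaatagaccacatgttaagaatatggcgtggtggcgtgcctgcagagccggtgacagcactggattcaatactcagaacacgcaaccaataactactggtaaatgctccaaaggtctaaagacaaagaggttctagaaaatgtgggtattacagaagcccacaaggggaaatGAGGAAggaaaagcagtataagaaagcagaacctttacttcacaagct
P2ry14 (chr3:59153493-59153742, minus): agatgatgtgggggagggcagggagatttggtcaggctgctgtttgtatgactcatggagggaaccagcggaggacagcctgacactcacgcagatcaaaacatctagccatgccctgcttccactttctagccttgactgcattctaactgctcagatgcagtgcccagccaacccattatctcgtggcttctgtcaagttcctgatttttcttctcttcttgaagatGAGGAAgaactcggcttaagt
Entpd1, inner start (chr19:40659520-40659769, plus): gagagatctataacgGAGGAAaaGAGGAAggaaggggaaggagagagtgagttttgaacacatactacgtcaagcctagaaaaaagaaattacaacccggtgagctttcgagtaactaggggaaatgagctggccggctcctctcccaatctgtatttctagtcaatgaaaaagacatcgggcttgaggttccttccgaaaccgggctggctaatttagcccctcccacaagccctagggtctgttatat

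The P2ry13 window held 1 match, 48 bases before the start, and the P2ry14 window 1, at 21 bases. The Entpd1 window held 2, at 235 and 227 bases, which did not overlap each other. The P2ry12 window held none. RefSeq gave 4 windows for P2ry14, each with 1 match. Of these, 2 overlapped (chr3:59131119-59131368 and chr3:59131329-59131578) and held the same match, 239 bases before one start and 29 before the other. RefSeq also gave a second window for Entpd1, at its outer start (chr19:40612116-40612365), with none. Windows beyond the printed ones are not shown. The letters TTCNNNGAA, a STAT site, were searched because JAK2 signals through STAT factors, and matched no window of the 6 genes with a RefSeq row, which leave out P2ry6. Over all 32851 windows of that length, 23.3% held GAGGAA and 7.02% held TTCNNNGAA, so a match is common. A match is a description of letters, not a bound site.

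In resident macrophages the question was how the genotype, and then the aneurysm, went with each gene. Counts were summed per mouse over resident cells and fitted with edgeR's quasi-likelihood test across all genes. P2ry13 was lower in Jak2V617F Myel resident macrophages, and Entpd1 and P2rx7 were near the same mean in both genotypes. Of 6606 genes tested, 2.36% passed an adjusted p of 0.05. Of the 6 purinergic genes that passed the filter on low counts, 1 passed, P2ry13, in the lower direction. P2ry14 was too low to test. The median log2 fold change of the 6 was -0.24, beside -0.03 over all genes tested. In sums over cells, fewer cells with a transcript and less transcript per cell cannot be told apart.

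P2ry13 was at 56.3, 48.0, 77.9, 44.9 and 53.3 CPM in Jak2WT mice 1 to 5. It was at 20.3, 29.7 and 30.4 CPM in mice 6, 8 and 10 with dilation and at 28.3 and 26.5 CPM in mice 7 and 9 with aneurysm. Every mutant mouse stood below every wild-type mouse. The means were 27.1 ± 4.04 and 56.1 ± 12.96 CPM (SD, n = 5 each), a log2 fold change of -1.02 (SE 0.18, 95% interval -1.41 to -0.63, edgeR adjusted p = 0.00724). Leaving out each mouse in turn gave -1.05 to -0.88, with P2ry13 past the threshold each time. With only the 3 mice with dilation against Jak2WT it was -0.99, and the adjusted p of 0.0774 missed the threshold.

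Because the resident subsets differed in share between genotypes, P2ry13 was also read inside each. In Res-MGL1hi cells, the mice with at least 10 cells gave 41.3 and 51.6 CPM (Jak2WT mice 2 and 5) against 18.7 to 26.9 CPM (5 Jak2V617F Myel mice). With only 2 Jak2WT mice, the fit gave -0.98 (SE 0.38) and did not pass (edgeR adjusted p = 0.484). In Res-Txnip-hi cells, P2ry13 was at 54.5, 58.0, 88.6, 36.2 and 61.9 CPM in Jak2WT mice and at 7.16, 40.8 and 44.3 CPM with dilation and 46.4 and 36.5 CPM with aneurysm. These groups overlapped, since mouse 4 was below all but 1 of the Jak2V617F Myel mice, and the counts were under the filter. In Res-S100hi cells it was at 52.9 ± 22.9 CPM (n = 3) in Jak2WT and 30.8 ± 5.09 CPM (n = 4) in Jak2V617F Myel mice. The share of the subsets in the difference over all resident cells was not tested.

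P2ry12, the other ADP receptor, was at 102, 121, 184, 109 and 91.0 CPM in the resident macrophages of Jak2WT mice 1 to 5. It was at 80.0, 94.3 and 79.0 CPM with dilation and 68.4 and 90.7 CPM with aneurysm. The groups overlapped through mouse 8, which exceeded mouse 5, and mouse 3 stood apart at the top. The log2 fold change was -0.51 (SE 0.17, 95% interval -0.86 to -0.16), and the adjusted p of 0.126 missed the threshold in edgeR.

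P2ry6, the UDP receptor, was at 205, 197, 230.5, 209.7 and 259 CPM in resident macrophages of Jak2WT mice 1 to 5. Jak2V617F Myel mice gave 179, 182 and 194 CPM with dilation and 164 and 179 CPM with aneurysm. The groups did not overlap, but the difference was small, -0.29 on the log2 scale (SE 0.11, edgeR adjusted p = 0.201). P2ry6 and P2ry13 were the 2 of 7 genes whose genotype groups did not overlap in resident macrophages, as was the case for 3.65% of all 6606 genes tested.

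The ATP-gated channels and Entpd1 overlapped between genotypes. P2rx7 was at 108.8 ± 28.0 CPM in Jak2V617F Myel and 108.7 ± 29.6 CPM in Jak2WT mice (n = 5 each), with a log2 difference of -0.01 and a 95% interval of -0.41 to 0.38. The interval allows changes of either sign, and the sign turned with processing. P2rx4 was at 111 ± 25.3 and 125 ± 22.4 CPM (log2 fold change -0.18, SE 0.17, edgeR adjusted p = 0.712), with mouse 8 lowest at 68.5 CPM. Entpd1 was at 129.7 ± 23.6 and 125 ± 10.5 CPM (log2 fold change 0.06, SE 0.14, 95% interval -0.23 to 0.35). P2ry14 stayed at 2.71 to 11.1 CPM in every mouse.

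**Figure D1:**
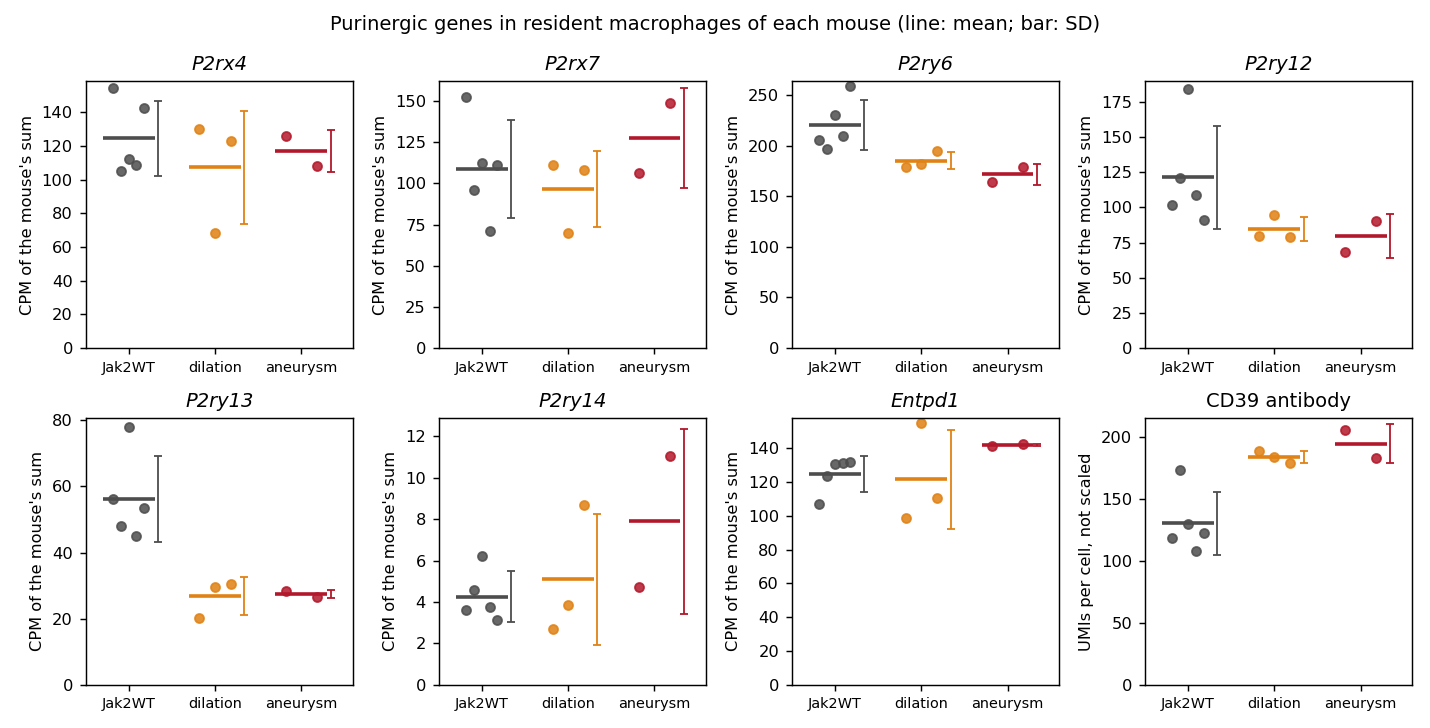
Levels in resident macrophages of each mouse, as CPM of the mouse's summed counts for the 7 genes and as unscaled UMIs per cell for the CD39 antibody, in Jak2WT (n = 5) and Jak2V617F Myel mice with dilation (n = 3) or aneurysm (n = 2). Points are mice, lines means and bars SD; all 5 mutant mice lie between 20.3 and 30.4 CPM for P2ry13, below the Jak2WT range of 44.9 to 77.9 CPM.

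Within Jak2V617F Myel mice, the groups with aneurysm and dilation overlapped for all 7 genes in resident macrophages, and did not overlap for 20.3% of all genes tested. In that contrast 0.0131% of 7617 genes passed (1 gene, and 296 at an unadjusted p below 0.05), and 0 of the 6 purinergic genes tested did by edgeR or by DESeq2. P2ry13 was at 27.4 ± 1.24 CPM (n = 2) with aneurysm and 26.8 ± 5.63 CPM (n = 3) with dilation, a log2 difference of -0.01 with a 95% interval of -0.56 to 0.54. Of the 6 genes tested, P2rx7 had the widest log2 step, 128 ± 30.3 against 96.3 ± 23.1 CPM, and its groups overlapped (log2 difference 0.40, 95% interval -0.09 to 0.89). With 2 mice against 3, changes inside these intervals were not detectable.

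The macrophage populations were then compared within the same mice. P2rx7, P2ry12 and P2ry13 were lower in inflammatory than in resident macrophages of the same animal in each of the 5 mice with at least 10 cells of both (mice 2, 6, 7, 9 and 10). Resident cells held 114 ± 20.3 CPM of P2rx7 and inflammatory cells 33.6 ± 8.69 CPM, a 3.39-fold step. P2ry12 was 2.70-fold higher in resident cells, at 87.9 ± 20.2 against 32.6 ± 17.2 CPM. P2ry13 was 2.93-fold higher, at 30.7 ± 10.4 against 10.5 ± 5.99 CPM. All inflammatory cells held 49 P2ry13 UMIs. Mice 2, 6 and 10 had only 14, 10 and 19 such cells, so their P2ry13 values there rest on few UMIs. In mice 7 and 9, P2ry13 was at 28.3 and 26.5 CPM in resident cells and 5.72 and 6.73 CPM in inflammatory cells. The populations were clustered on the same transcripts, so these folds carry no test.

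P2rx4 took an intermediate place, with 119 ± 11.2 CPM against 74.4 ± 14.9 CPM, and was higher in resident cells in 5 of 5 mice. P2ry6 and Entpd1 had no such step in the mean over the 5 mice. For P2ry6, resident cells gave 183 ± 13.4 CPM and inflammatory ones 199 ± 19.1 CPM, with resident cells higher in 1 of 5 mice. Entpd1 was at 123 ± 18.9 and 117 ± 17.4 CPM, with resident cells higher in 3 of 5. In mice 7 and 9, with 237 and 190 inflammatory cells, Entpd1 was at 141 and 142 CPM in resident cells. It was lower in their inflammatory cells, at 117 and 106 CPM. Inflammatory macrophages thus held P2ry6 near the resident level, with fewer transcripts of P2X7 and of both ADP receptors. Their Entpd1 was near that level in the mean of 5 mice and below it in mice 7 and 9.

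**Figure D2:**
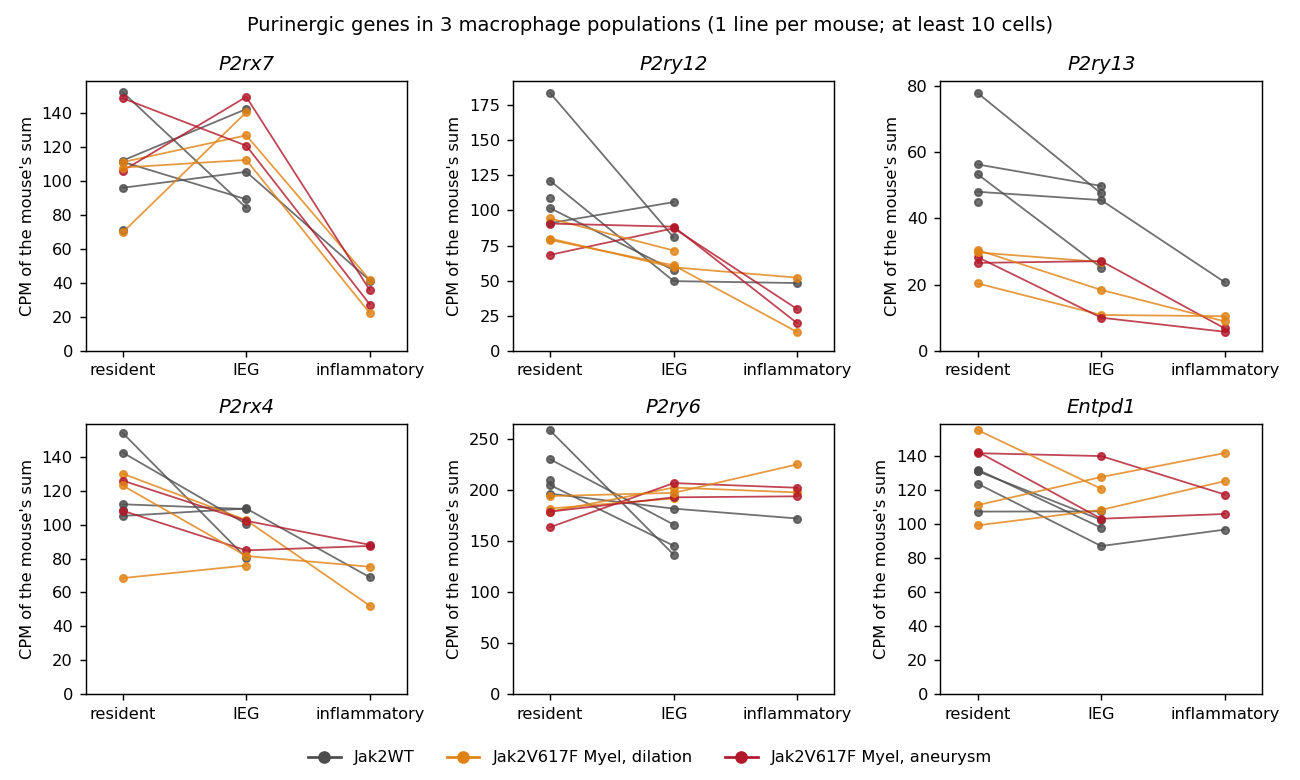
CPM of 6 genes in resident, IEG and inflammatory macrophages, with 1 line per mouse for populations of at least 10 cells, coloured by group. In all 5 mice with inflammatory cells, P2rx7, P2ry12 and P2ry13 end below their resident level, whereas P2ry6 lies at 172 to 226 CPM in inflammatory cells, beside 164 to 197 CPM in the resident cells of the same mice.

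In sums over all macrophages, the share of inflammatory cells differed between aneurysm and dilation, as given above. The contrast of aneurysm against dilation called 9.78% of 9018 genes. Of the 6 purinergic genes tested, 3 passed, all lower with aneurysm: P2rx7, P2ry12 and P2ry13. The median log2 fold change of the 6 was -0.27, beside -0.01 over all genes tested.

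P2rx7 over all macrophages was at 59.3 and 68.5 CPM in mice 7 and 9 and at 107, 88.8 and 98.9 CPM in mice 6, 8 and 10. The groups did not overlap, which held for 44.3% of all genes tested with 2 mice against 3, and the log2 fold change was -0.55 (SE 0.16, edgeR adjusted p = 0.0478). P2ry12 was at 42.6 and 47.0 CPM against 74.0, 78.8 and 68.5 CPM (-0.64, SE 0.17, adjusted p = 0.0243). P2ry13 was at 10.6 and 14.3 CPM against 18.2, 27.2 and 24.2 CPM (-0.83, SE 0.21, adjusted p = 0.0227). P2ry6, Entpd1 and P2rx4 differed by 0.09, 0.08 and 0.02 on the log2 scale and did not pass.

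The sums were also fitted without the inflammatory cluster, a step chosen after seeing the data. Then, the log2 differences were 0.14 for P2rx7, -0.02 for P2ry12 and -0.12 for P2ry13, each with an adjusted p of 1 in edgeR, and 0 of 8862 genes passed. Leaving out single mice gave 0 to 3 of the 6 genes. None passed without mouse 7 or without mouse 8, and 1 passed without mouse 6, 9 or 10. Summed neutrophil markers over all macrophages, all 5 of them detected, were at 43.3 to 72.1 CPM with aneurysm, 31.5 to 37.8 CPM with dilation and 30.8 to 42.2 CPM in Jak2WT mice, and their part in the differences was not tested.

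**Figure D3:**
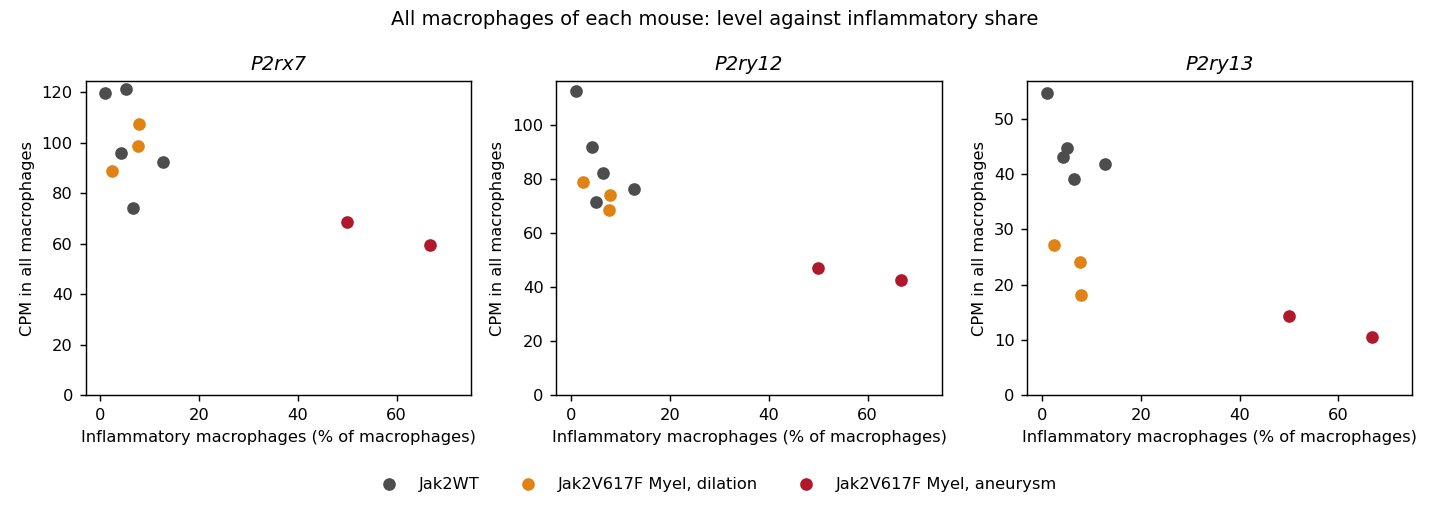
CPM of P2rx7, P2ry12 and P2ry13 over all macrophages of each of the 10 mice, against the percentage of those macrophages in the inflammatory cluster. Mice 7 and 9, at 66.8% and 50%, have the lowest values of all 3 genes, and for P2ry13 the dilation mice also lie below the Jak2WT mice at shares of inflammatory cells under 13%.

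Between genotypes, the fit over all macrophages called 0 of 8167 genes in edgeR (a background of 0%, with 982 genes at an unadjusted p below 0.05), whereas DESeq2 called 52. P2ry13 was the 1 purinergic gene whose genotype groups did not overlap, beside 1.84% of all genes tested. It was at 39.1 to 54.6 CPM in Jak2WT and 10.6 to 27.2 CPM in Jak2V617F Myel mice, a log2 fold change of -1.27 (SE 0.22, edgeR adjusted p = 0.0883). DESeq2 gave -1.26 and an adjusted p of 0.00047. Without the inflammatory cluster edgeR gave -0.98 with an adjusted p of 0.0149. P2ry12 was at -0.48 (SE 0.18, adjusted p = 0.33), and the median of the 6 genes was -0.20, beside -0.01 over all genes tested.

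IEG macrophages were another population, in 4 Jak2WT and 5 Jak2V617F Myel mice, since mouse 4 had only 9 such cells. Of 4949 genes, 0.141% passed, and 0 of the 6 purinergic genes tested did (448 genes had an unadjusted p below 0.05, and DESeq2 called 9 genes and 0 of the 6). P2ry13 was at 49.8, 45.5, 47.5 and 25.1 CPM in Jak2WT mice 1, 2, 3 and 5 and at 10.8, 26.8 and 18.4 CPM with dilation and 9.98 and 27.1 CPM with aneurysm. The groups met at mouse 5, and the log2 fold change was -1.15 (SE 0.31, adjusted p = 0.206). P2ry6 differed in sign from resident cells: 199 ± 6.42 CPM in Jak2V617F Myel and 158 ± 20.4 CPM in Jak2WT mice, without overlap (0.29, SE 0.13, adjusted p = 0.542), beside 2.61% of all genes tested whose groups did not overlap. The difference between both populations was not tested. P2ry12 was level, at 73.5 ± 13.9 and 73.5 ± 25.4 CPM.

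Across all leukocyte classes, the genes fell into a macrophage group and a few patterns of their own. Levels below are pooled CPM of a class, with the range over mice of at least 10 cells, and they are compared within a gene only, since end-tag counts are not scaled by transcript length. Shares of cells with a UMI are given after every cell was thinned to 2000 UMIs. Lymphocytes are set beside them as a reference that holds free RNA and any transcripts of their own, which were not separated. For P2rx4, B cells were at 115 CPM, near the 118 CPM of resident macrophages. The median was 5388 UMIs per B cell against 10631 per resident macrophage.

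P2ry6 marked macrophages. It was at 252 CPM in Res-Txnip-hi (154 to 319 over mice), 199.7 in Res-S100hi, 198 in inflammatory, 184 in IEG and 156 CPM in Res-MGL1hi cells, and each range overlapped the next. Dendritic cells followed, with 65.1 CPM in cDC1 and 48.0 CPM in type 2 dendritic cells (cDC2), and B and T cells had 3.17 and 2.73 CPM. The 28 monocytes had 53.8 CPM. A myeloid class of 206 cells, named by markers that include Saa3, had only 10.7 CPM of P2ry6. That class was also low for P2ry12 (6.92 CPM), P2ry13 (0.954 CPM) and P2rx7 (21.0 CPM). After thinning, 33.8% of resident macrophages had a P2ry6 UMI (exact 95% interval 30.2% to 37.6%, 81.4% before thinning), beside 1.69% of B cells.

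P2ry12 stood highest in platelets, where it is the known receptor for ADP-driven aggregation. The value of 395 CPM there rested on 20 UMIs in 34 cells (exact Poisson interval 241 to 610 CPM, for counting error only), and 1 mouse had at least 10 such cells. Among macrophages, P2ry12 was at 118 CPM in Res-Txnip-hi, 82.4 in Res-S100hi, 81.3 in Res-MGL1hi, 71.8 in IEG and 24.8 CPM in inflammatory cells. In resident macrophages, 3 platelet markers, not the full list that named platelets, summed to 0 to 12.5 CPM in Jak2WT mice. In Jak2V617F Myel mice the sum was 0.725 to 6.63 CPM. The part of platelet RNA in the P2ry12 values was not tested. After thinning, 16.8% of resident macrophages (57.9% before) and 0.563% of B cells had a P2ry12 UMI.

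P2ry13 was read in resident macrophages and neutrophils alike. It was at 50.3 CPM in Res-Txnip-hi (7.16 to 88.6 over mice), 43.7 in neutrophils (36.2 to 70.9), 36.9 in Res-S100hi and 26.9 CPM in Res-MGL1hi cells, whose ranges overlapped, and at 7.16 CPM in inflammatory macrophages. No P2ry13 UMI was found in 560 B cells, where the limit for a count of 3 is 0.793 CPM. After thinning, 6.42% of resident macrophages (exact 95% interval 4.67% to 8.58%, 30.1% before) and 0 of 533 B cells had a UMI, which allows up to 0.69%.

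P2rx7 followed resident and IEG macrophages. It was at 134 CPM in Res-Txnip-hi, 119.6 in IEG, 118 in Res-MGL1hi and 71.9 CPM in Res-S100hi cells, with overlapping ranges, and at 32.4 CPM in inflammatory macrophages. Mast cells reached 83.9 CPM on 21 UMIs, with a range of 20.1 to 169 CPM over 4 mice. Gamma-delta T cells had 21.1, other T cells 11.2 and B cells 3.70 CPM. After thinning, 19.1% of resident macrophages (58% before), 3.02% of T cells and 0.563% of B cells had a UMI.

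P2rx4 was also read in B cells, mast cells and cDC2. It was at 148 CPM in mast cells (37 UMIs), 146 in Res-Txnip-hi, 115 in B cells (86.7 to 138 over 9 mice) and 83.4 CPM in cDC2. Each range overlapped the next in this order, whereas those of mast cells (140.9 to 201) and B cells did not overlap. After thinning, 19.3% of B cells (44.6% before) and 21.6% of resident macrophages (65.2% before) had a P2rx4 UMI. T cells had 33.7 CPM and 5.28%.

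P2ry14 was low in macrophages. It was at 135 CPM in cDC1 (82.4 to 163 over 4 mice), 91.9 in mast cells (28.2 to 186), 37.6 in a Rag1-led T cell cluster and 35.3 CPM in type 2 innate lymphoid cells (ILC2), beside 6.16 CPM in resident macrophages. The cDC1 and mast cell ranges overlapped, and those of cDC1 and ILC2 (22.4 to 61.1) did not. After thinning, 18.1% of cDC1 (exact 95% interval 10.5% to 28%, 74.7% before) and 1.22% of resident macrophages (5.65% before) had a UMI. B cells had 0.563%, inside the interval of the resident share (0.53% to 2.4%), and T cells 0 of 398, which allows up to 0.923%. In pooled CPM, the exact interval of resident macrophages (4.49 to 8.24) lay above that of B cells (0.582 to 3.45), for counting error only.

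Entpd1 was at 404 CPM in neutrophils (213 to 523 over 3 mice) and 104 to 130.3 CPM in every named macrophage subset other than monocytes. Neutrophils hold little RNA, and per cell the 2.1 Entpd1 UMIs in neutrophils compare with 1.42 in resident macrophages. cDC2 had 56.3, B cells 13.5, T cells 12.2 and ILC2 1.41 CPM. After thinning, 52.3% of neutrophils (68.2% before), 22.5% of resident macrophages (68.1% before) and 1.88% of B cells had an Entpd1 UMI.

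**Figure D4:**
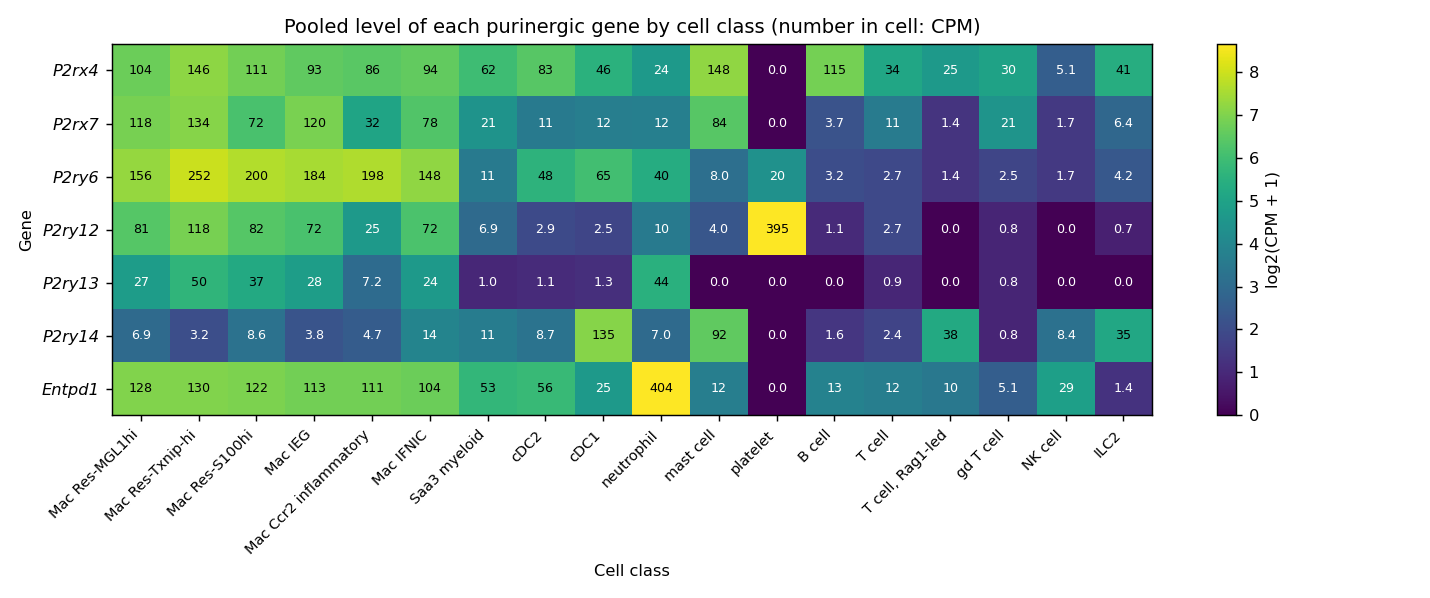
Pooled level of each gene (rows) in 18 leukocyte classes (columns, Mac for macrophage), coloured by log2(CPM + 1) with the CPM written in each field. P2ry6 is filled mainly across the macrophage columns. P2ry12, P2ry13 and P2rx7 are filled there and also in platelets (P2ry12, its highest value at 395 CPM), neutrophils (P2ry13, 43.7 CPM) and mast cells (P2rx7, 83.9 CPM). P2ry14 is filled in cDC1 and mast cells, and Entpd1 has its highest value in neutrophils at 404 CPM.

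Likeness was read over the 16 classes with at least 10 cells in 3 mice or more, several of them macrophage subsets. Platelets were thereby left out. There, P2ry12 was at 395 CPM (20 UMIs), P2ry6 at 19.8 CPM (1 UMI) and P2ry13 at 0 CPM. The limit for a count of 3 in platelets was 59.3 CPM. Exact intervals reached up to 110 CPM for P2ry6 and 72.9 CPM for P2ry13, so macrophage levels of P2ry13 are not excluded there. Over the 16 classes the log2 levels of P2ry12 correlated with those of P2ry6 (r = 0.872) and P2ry13 (r = 0.826), and P2ry14 ran against P2ry13 (r = -0.45). These are descriptions over classes that share 1 library. Among 5848 genes, the patterns most like each were Slc15a4, Dnase2a and Zbtb7a for P2rx4 (r from 0.921 to 0.884), Etv5, Tspan4 and Dse for P2rx7 (0.946 to 0.922), and Asah1, B4galt6 and Cttnbp2nl for P2ry6 (0.965 to 0.96). They were Cracr2b and Trpv4 for P2ry12 (0.984 and 0.982), Tlr4, Sft2d2 and Arl11 for P2ry13 (0.921 to 0.917), and Hlx, Hk3 and Spi1 for Entpd1 (0.953 to 0.949). P2ry14 had the weakest likeness, with Gfpt1, Nr4a2 and Gcsam at 0.808 to 0.779.

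The locus on chromosome 3 was read further. Med12l, which spans the 3 receptors, was at 3.01 CPM in resident macrophages, and Gpr171, on the same strand as the receptors within Med12l, was at 0.547 CPM there. Gpr171 reached 236 CPM in cDC1, 206 in natural killer cells and 177 CPM in B cells. Both genes were chosen for their position. Med12l and Gpr171 were thus low in resident macrophages, where P2ry12 and P2ry13 were read.

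Outside macrophages, genotypes were compared in cDC2, B cells and T cells only, and no purinergic gene that could be tested there passed. P2ry12 and P2ry13 were too low to test in these classes. Neutrophils, mast cells, cDC1 and the other classes were not tested. In cDC2, 0.0474% of 4222 genes passed (2 genes, 329 at an unadjusted p below 0.05, and 15 by DESeq2), and 0 of 3 purinergic genes tested did by either tool. P2rx4 was at 86.5 ± 7.504 CPM in 5 Jak2V617F Myel and 57.1 ± 23.1 CPM in 4 Jak2WT mice (log2 fold change 0.53, edgeR adjusted p = 0.634). P2ry6 differed by 0.65 (adjusted p = 0.655) and Entpd1 by -0.56 (adjusted p = 0.686), and all 3 overlapped. In B cells, with the 38-cell cluster described below included, 0% of 3621 genes passed in edgeR (152 at an unadjusted p below 0.05, and 0 by DESeq2), and P2rx4, the only one of the 7 tested, was at 121 ± 20.7 and 108.1 ± 13.1 CPM. In T cells, with the Rag1-led cluster included, 0% of 3813 genes passed in edgeR (381 at an unadjusted p below 0.05, and 3 by DESeq2). P2rx4 there was at 24.7 ± 13.8 CPM in Jak2V617F Myel and 37.5 ± 7.69 CPM in Jak2WT mice (-0.95, SE 0.29, edgeR adjusted p = 0.293), and the groups overlapped. The Rag1-led cells were unevenly spread, at 0 in mice 1, 5 and 7 and 71, 34, 24 and 68 in mice 3, 6, 9 and 10. Without them P2rx4 was at 30.7 ± 33.9 CPM in Jak2V617F Myel and 39.4 ± 9.43 CPM in Jak2WT mice, with overlap.

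Surface CD39 was the one protein of the set that was stained. It lay on macrophages and was low on lymphocytes. Without scaling, Res-MGL1hi cells carried 231 CD39 UMIs per cell (180 to 269.8 over 7 mice), IEG 167, Res-S100hi 123, Res-Txnip-hi 113 and inflammatory macrophages 99.4. cDC2 had 53.0, neutrophils 35.3, B cells 7.5 and T cells 6.44 per cell, and the isotype controls summed to 1.09 per resident macrophage and 0.172 per T cell. Neutrophils, at the top for the Entpd1 transcript, were therefore below every macrophage subset for CD39 other than monocytes (12.5 per cell). Over 16 classes Entpd1 and CD39 correlated with r = 0.8 (Spearman's rho 0.809), and with r = 0.87 when neutrophils were left out.

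Within mice, resident macrophages were set against other classes with exact permutation tests that flip signs within mice, adjusted over 5 comparisons. CD39 per resident cell exceeded cDC2 by 1.61 on the log2 scale (9 of 9 mice, exact adjusted p = 0.00651), B cells by 3.14 (9 of 9, exact adjusted p = 0.00651) and T cells by 4.74 (10 of 10, exact adjusted p = 0.00651). Their unadjusted exact permutation p-values, 0.00391, 0.00391 and 0.00195, were the smallest these numbers of mice allow. Against inflammatory macrophages, CD39 was 0.97 higher in 5 of 5 mice, where the exact p of 0.0625 is the smallest that 5 mice allow (adjusted p = 0.0781). Against IEG macrophages the difference was -0.05 ± 0.25 (SD, n = 9, exact permutation p = 0.559). These values were unscaled, and all antibodies summed to 1917 UMIs per resident and 1424 per inflammatory cell. Over alternatives in processing, the excess was 0.40 to 1.10 against inflammatory macrophages (exact adjusted p up to 0.156). It was 1.51 to 1.71 against cDC2, 2.00 to 4.52 against B cells and 2.75 to 4.82 against T cells. A cluster of 38 cells led by B cell genes carried 189.9 CD39 UMIs per cell. It had macrophages as its second best marker match, a median of 16734.5 UMIs per cell against 5388 in the other B cells, 103 CPM of P2ry6 against 3.17 CPM, and 2583 UMIs of all antibodies per cell against 706. Droplets with 2 cells of the same mouse are not removed by hashtags, and their part was not tested. Without this cluster the excess over B cells was 4.52.

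Between genotypes the CD39 result depended on the scale. Unscaled, it was at 119, 174, 130, 108 and 123 UMIs per resident cell in Jak2WT mice 1 to 5. It was at 189, 184 and 179 with dilation and 206 and 183 with aneurysm, so that every mutant mouse stood above every wild-type mouse (0.54 on the log2 scale, exact two-sided permutation p = 0.00794, the lowest value possible with 5 mice a group). The sum of all antibodies moved the same way, at 2049 to 2165 UMIs per resident cell in Jak2V617F Myel and 1241 to 1956 in Jak2WT mice, and so did the isotype controls, at 0.925 to 1.91 against 0.346 to 0.875. Each mouse was stained before pooling, and the genotypes received CD45.2 antibodies of different dyes, so staining and genotype cannot be told apart.

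Scaled by the other antibodies in the edgeR fit, CD39 did not pass: -0.02 (SE 0.10, 95% interval -0.23 to 0.20, adjusted p = 0.905). Of 73 antibodies, 0% passed (14 at an unadjusted p below 0.05). Per isotype count it was lower in Jak2V617F Myel mice (-0.80, exact permutation p = 0.00794). Inside Res-Txnip-hi cells the unscaled values were 91.9 to 117 in Jak2WT and 115 to 144 in Jak2V617F Myel mice, with overlap (0.26, exact permutation p = 0.0238). Inside Res-MGL1hi cells they were 180 and 269.8 against 212 to 261 (0.11, exact permutation p = 0.619, 2 against 5 mice). Res-MGL1hi cells, at 231 unscaled CD39 UMIs per cell against 113 in Res-Txnip-hi cells, also had more of all antibodies (2426 against 1340) and of isotype controls (1.46 against 0.645), and their share differed between genotypes.

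**Figure D5:**
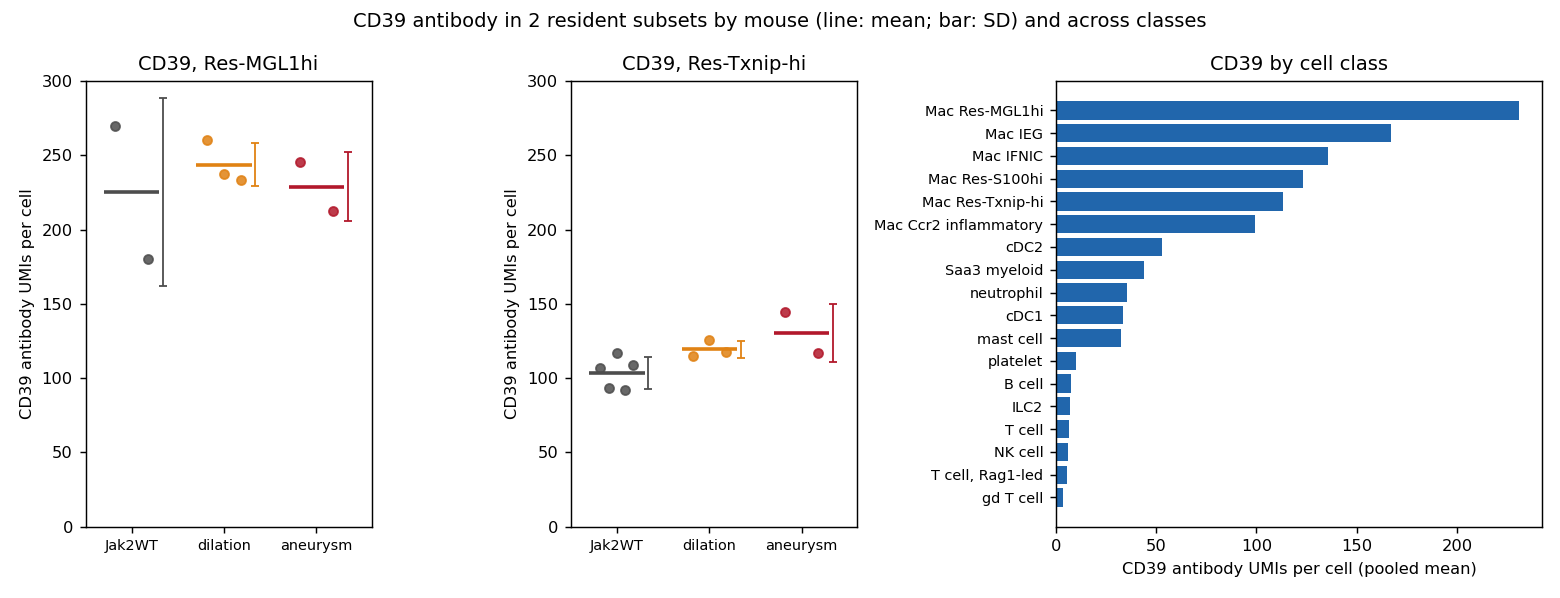
CD39 antibody UMIs per cell, unscaled, in Res-MGL1hi and Res-Txnip-hi macrophages of each mouse with at least 10 cells (points, with means as lines and SD as bars), and the pooled mean per cell in 18 classes (bars, Mac for macrophage). Res-MGL1hi cells average 231 and Res-Txnip-hi cells 113, and the lymphocyte classes lie under 10.

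Over all macrophages, where again 0% of the 73 antibodies passed (7 at an unadjusted p below 0.05), the scaled CD39 difference was -0.18 (SE 0.17, edgeR adjusted p = 0.668). Within resident cells, no difference in CD39 was detected between cells with and without an Entpd1 UMI after thinning. Cells with a UMI had 176 and cells without one 154 CD39 UMIs per cell, higher in 6 of 10 mice (exact permutation p = 0.291). A link within resident cells was not detectable at this depth.

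47 other genes of the pathway were read from lists of receptors, enzymes, release channels, uptake and the inflammasome. The other P2X genes (P2rx1, P2rx2, P2rx3, P2rx5 and P2rx6) were at 0 to 0.655 CPM in resident macrophages. Of the other P2Y genes, P2ry10b was at 30.6 ± 20.4 CPM and the rest at 0 to 1.61 CPM (n = 10). Of the adenosine receptors, Adora2b was at 7.89 ± 4.17 CPM and Adora2a at 0.219 ± 0.491 CPM. Cd38, an NAD-degrading enzyme, was at 83.5 ± 23.9 CPM, whereas Nt5e, encoding CD73, was at 0.118 ± 0.373 CPM. Resident macrophages therefore carried the transcript of the enzyme that makes AMP with almost none of the enzyme that turns it into adenosine.

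Of the release channels, Lrrc8a was at 40.5 ± 12.7 CPM and Panx1, a known ATP channel, at 7.17 ± 3.41 CPM. Among uptake and use genes, Pnp, which splits purine nucleosides, was at 196 ± 61.8 CPM, and Slc29a1, a nucleoside transporter, at 83.3 ± 19.4 CPM. Between genotypes in resident macrophages, 17 of the 47 were testable, 1 was higher and none lower, beside 2.36% of all genes called. The gene was Nlrp3, the inflammasome sensor, at 106 ± 57.4 CPM in Jak2V617F Myel and 33.5 ± 15.8 CPM in Jak2WT mice (log2 fold change 1.78, SE 0.40, edgeR adjusted p = 0.0246), with overlap. Mice 7 and 9 with aneurysm were highest, at 158 and 173 CPM. Mice 6, 8 and 10 with dilation were at 94.9, 42.6 and 63.1 CPM, beside 12.6 to 54.9 CPM in Jak2WT mice. The part of the resident subsets, whose shares differed between genotypes, was not tested. Il1b was at 56.3 ± 31.4 and 33.6 ± 8.89 CPM (0.74, adjusted p = 0.299) and Txnip at 590 ± 96.3 and 749.9 ± 222 CPM (-0.34, adjusted p = 0.336). P2rx7, which acts upstream of NLRP3, differed by -0.01 in the same cells.

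Aneurysm against dilation in resident macrophages called 0 of the 19 listed genes testable by edgeR (3 at an unadjusted p below 0.05), and genotype over all macrophages 0 of 20 (4). Over all macrophages, aneurysm against dilation called 5 of 24, beside 9.78% of all genes tested. Higher were Adora2b at 34.5 ± 8.96 against 10.6 ± 4.11 CPM (log2 fold change 1.88, adjusted p = 0.00111), Nlrp3 at 526 against 198 CPM (1.47, adjusted p = 0.0095) and Il1b at 2419 against 457 CPM (2.47, adjusted p = 0.00989). Nt5e was at 10.4 and 22.7 CPM with aneurysm and 0 to 0.716 CPM with dilation (adjusted p = 0.000189), and its fitted fold depends on the prior count. Txnip was lower, at 193 against 533 CPM (-1.40, adjusted p = 0.00202).

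The same 5 genes differed between the populations, without a test. Pooled inflammatory macrophages had 24.0 CPM of Nt5e, beside 0.137 CPM in resident cells, and 43.3 CPM of Adora2b, beside 8.35 CPM. They had 676 CPM of Nlrp3 and 3491 CPM of Il1b, beside 85.8 and 48.3 CPM, and 75.4 CPM of Txnip, beside 637 CPM. Il1b was among the markers that named the inflammatory cluster, and Txnip among those that named Res-Txnip-hi. Neither step is therefore a check of these populations. The Nt5e and Adora2b values came mainly from mice 7 and 9, at 14.8 and 37.8 CPM of Nt5e, with 237 and 190 inflammatory cells. Mouse 10, with 19 such cells, had 4.42 CPM of Nt5e and 8.84 CPM of Adora2b. No UMI of either was found in mice 2 and 6, whose 14 and 10 inflammatory cells were too few to exclude low levels. Beside resident cells, the population with lower P2rx7, P2ry12 and P2ry13 was thus, in mice 7 and 9, the one with more Nt5e and Adora2b. Its Il1b was at 1916 to 3641 CPM over 5 mice. Adora2b and Il1b were not particular to it, since pooled cDC2 had 41.8 and 3524 CPM, with 0.477 CPM of Nt5e. The pooled Entpd1 of inflammatory macrophages was 111 CPM (exact interval 103 to 119), below the resident 128 CPM (120 to 136), for counting error only.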

How the data were processed

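The authors aligned and counted reads with Cell Ranger 6.0.2 on mm10 and deposited 1 filtered matrix of counts (whole UMIs) per barcode, made before multiplets were removed, for genes, 75 antibodies and 10 hashtags. From these, barcodes were assigned to mice by hashtag (Seurat 5.3.0, HTODemux, positive quantile 0.99), which also removed barcodes with several hashtags as doublets. Cells over 10% mitochondrial counts were dropped. Cells were clustered on 2000 variable genes and 20 components at resolution 0.3, and macrophages again at 0.8 after clusters with a median depth under 1 in 3 of the whole were removed. Clusters were named from fixed markers, so names may differ from the study's.

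Counts were summed per mouse (at least 10 cells) and tested in R 4.3.3 with edgeR 4.0.16 (filterByExpr, TMM, quasi-likelihood, two-sided, Benjamini-Hochberg over all genes tested, threshold 0.05). DESeq2 1.42.0 was an alternative. CPM are per 1000000 gene UMIs of the sum. Intervals for pooled levels and shares are exact and cover counting error only. Of 75 antibodies, 73 had counts. The code was tested on simulated data.

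The genes, pathway lists and markers were chosen with earlier results of these data known. Beyond the 7 genes, named genes were, per comparison, up to 6 listed genes that passed by size of fold, the 2 of highest mean level in each role, and the 3 most alike over classes, of which 1 is not reported here. Med12l and Gpr171 were added for position after their values were seen, as were the remaining listed genes named. Each mouse is a separate animal.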

Additional observations from a re-analysis of the deposited data

How the results depend on the processing

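Alternatives comprised DESeq2, no filter on low counts, RLE size factors, MULTIseqDemux assignment, a mitochondrial limit of 5%, other cluster settings and each mouse left out. P2ry13 in resident macrophages passed in edgeR under all of them except with dilation mice alone and within single subsets, and adjusted p ranged from 0.00131 to 0.0297 where it passed. No purinergic gene passed in resident cells with dilation alone against Jak2WT (0, with 29 genes in all, fewer mice), and 0 passed in Res-MGL1hi alone (2 genes) or Res-Txnip-hi alone (0 genes), both chosen after seeing the data. Over all macrophages, genotype gave 1 gene, P2ry13, with DESeq2 (52 genes in all), with no filter (23) and without the inflammatory cluster (36, chosen after seeing the data). Aneurysm against dilation gave 0 without that cluster, and from 0 to 3 with single mice left out (354 to 998 genes in all). Without a filter IEG macrophages gave 1 gene, P2ry13 (adjusted p 0.0498, 95 genes in all). The cause was not tested.

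Small differences turned sign. P2rx7 between genotypes in resident cells, -0.01, became 0.0078 with DESeq2, 0.0658 without a filter, 0.0036 with RLE, 0.0101 at 5% mitochondrial, 0.0845 with IEG cells included, 0.0059 at resolution 1.2 and 0.15 in Res-Txnip-hi alone, and ranged from -0.1584 to 0.1589 with single mice left out. There, P2rx4 became 0.0582 in Res-Txnip-hi alone and Entpd1 -0.0117 with dilation alone. Aneurysm against dilation in resident cells became 1e-04 (DESeq2), 0.018 (IEG included) and 0.0323 (resolution 1.2) for P2ry13, and 0.0359 (MULTIseqDemux) and 0.0928 (IEG included) for P2ry12. Single mice left out there gave P2rx4 -0.13 to 0.24, P2ry12 -0.32 to 0.11 and P2ry13 -0.14 to 0.12. Over all macrophages without the inflammatory cluster, genotype became 0.0492 for P2rx7 and -0.052 for P2ry6, and severity 0.14 for P2rx7 and -0.14 for P2ry6. Single mice left out gave -0.15 to 0.13 for P2rx4 and -0.0175 to 0.1697 for Entpd1 in the severity contrast. P2ry12 in IEG macrophages became 0.0055 without a filter and 0.0813 with MULTIseqDemux, and -0.22 to 0.19 with single mice left out.

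CD39 between genotypes in resident cells was -0.80 per isotype count and 0.54 unscaled, and unscaled 0.26 in Res-Txnip-hi and 0.11 in Res-MGL1hi alone, and -0.0504 to 0.0147 with single mice left out (above 0 without mouse 7). Over all macrophages it was -0.62 per isotype count (exact permutation p = 0.00794) and 0.19 unscaled (exact permutation p = 0.262). As a share of all antibody UMIs, resident against IEG cells became -0.23 (exact adjusted p = 0.00488), a scale chosen after seeing the data, and unscaled it ranged from -0.0982 to 0.007774 with single mice left out (above 0 without mouse 1).

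Counts over all genes moved beyond 1.5 times in resident cells between genotypes from 156 to 437 without a filter, 39 with IEG cells included and 65 at resolution 1.2, and 51 to 259 with single mice left out. Severity in resident cells moved from 1 to 57 without a filter, 3 with DESeq2 and 0 at resolution 1.2. IEG macrophages moved from 7 to 2 at 5% mitochondrial, and cDC2 from 2 to 15 (DESeq2), 57 (no filter) and 0 (MULTIseqDemux). Without a filter B cells gave 32 and T cells 25, and T cells gave 3 with DESeq2 and 1 with MULTIseqDemux. Unthinned, the shares of resident cells with a UMI were 65.2% for P2rx4, 58% for P2rx7, 81.4% for P2ry6, 57.9% for P2ry12, 30.1% for P2ry13, 5.65% for P2ry14 and 68.1% for Entpd1. The genotypes could not be compared in pairs because they share no mouse and each hashtag number marks 1 mouse. Depth limits P2ry14 in macrophages and P2ry13 in Res-Txnip-hi cells, which fell under the count filter there.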
